A study of Mus musculus with 13 samples.

Results

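OLIG2 called peaks shared by oligodendrocyte precursor cells (OPCs) and newly formed oligodendrocytes (NFOs) are described here. A shared peak was a listed OLIG2 peak of OPCs that overlapped a listed OLIG2 peak of NFOs by at least 1 bp, so the members were selected on the measured peak positions themselves. The rule found 1059 of 7384 listed OPC peaks (14.3%), and they overlapped 1059 of 16911 listed NFO peaks one to one. The remaining 6325 OPC-only and 15852 NFO-only called peaks served for comparison.

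The series followed oligodendrocyte formation in mouse, from neural stem cells (NSCs) through OPCs to NFOs. ChIP-Seq of OLIG2, which sequences the DNA pulled down with an antibody to the protein, gave 1 library each for OPCs and NFOs, and ChIP-Seq of H3K4me3 and H3K27me3 gave 6 more for the 3 cell types. OPCs and NFOs came from postnatal day 7 C57BL/6 mouse brains, with OPCs caught on a plate coated with PDGFRα antibody after microglia and endothelial cells had been depleted, and NFOs caught next on a plate coated with GalC antibody. NSCs were cortical cells of E14.5 mice, bought and expanded in culture with growth factors. The labels call the NSCs C57BL/6 while the protocol names CD-1, so the strain of this group is uncertain. Every condition had 1 library, so there was no replicate error, peaks are not replicates, and the intervals below cover counting error over peaks alone.

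OLIG2 is a basic helix-loop-helix transcription factor that binds E-boxes, short DNA elements of the form CANNTG, and is needed to form the oligodendrocyte lineage and to carry OPCs through differentiation. H3K4me3 is a histone mark of active or poised promoters, and H3K27me3 is the mark laid down by Polycomb repressive complex 2 over silenced developmental genes. Sites that carry both marks are called bivalent.

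The shared peaks with the strongest signal in both cell types are shown first, as examples of the sequence at members. Of the 10 peaks with the highest value for the lower of the 2 fold enrichments, 7 were under 300 bp and lay outside untranslated regions. Sequences are those of GRCm38 (mm10) from RefSeq, on the plus strand and 5′ to 3′. Capitals mark E-boxes (CANNTG) and runs of at least 12 A or T. The peaks lay at chr17:35919091-35919284 in an intron of Ppp1r10, chr13:48324169-48324334 in the intergenic region 50368 bp from A330048O09Rik, chr5:124058800-124058912 in an intron of Gm34086, chr2:70558213-70558362 at 3754 bp upstream of a Gad1 TSS (transcription start site), chr16:91097217-91097310 at 2142 bp upstream of 4932438H23Rik, chr8:108755747-108755850 in an intron of Zfhx3 and chr4:107740102-107740247 in an intron of 1700047F07Rik.
Ppp1r10 intron: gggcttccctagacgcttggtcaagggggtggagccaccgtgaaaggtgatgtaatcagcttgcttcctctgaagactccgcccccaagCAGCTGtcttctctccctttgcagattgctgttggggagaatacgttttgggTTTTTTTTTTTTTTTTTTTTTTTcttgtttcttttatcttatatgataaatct
A330048O09Rik region: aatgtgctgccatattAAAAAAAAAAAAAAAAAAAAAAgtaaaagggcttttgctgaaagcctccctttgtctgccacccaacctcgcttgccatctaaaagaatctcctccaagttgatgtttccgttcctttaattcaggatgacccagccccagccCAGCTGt
Gm34086 intron: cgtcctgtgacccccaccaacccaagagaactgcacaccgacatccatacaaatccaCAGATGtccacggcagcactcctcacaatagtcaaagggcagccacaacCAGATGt
Gad1 upstream: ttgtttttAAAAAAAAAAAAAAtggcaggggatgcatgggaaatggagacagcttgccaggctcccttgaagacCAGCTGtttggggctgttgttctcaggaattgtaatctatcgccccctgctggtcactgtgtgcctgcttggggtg
4932438H23Rik upstream: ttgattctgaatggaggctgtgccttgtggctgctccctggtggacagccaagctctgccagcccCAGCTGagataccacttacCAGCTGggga
Zfhx3 intron: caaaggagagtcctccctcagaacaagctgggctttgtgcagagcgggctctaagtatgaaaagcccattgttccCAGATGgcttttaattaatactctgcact
1700047F07Rik intron: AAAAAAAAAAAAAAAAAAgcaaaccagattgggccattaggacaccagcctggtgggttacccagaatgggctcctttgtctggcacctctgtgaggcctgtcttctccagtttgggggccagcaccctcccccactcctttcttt
The E-box CAGCTG stood in 4 of these 7 peaks, once each at Ppp1r10, A330048O09Rik and Gad1 and as a pair in the 94 bp peak near 4932438H23Rik. The Gm34086 peak held CAGATG as a pair and the Zfhx3 peak held it once. The peak in 1700047F07Rik held no E-box. Within 100 bp of the centre, CAGCTG was found at 19.0% and CAGATG at 20.2% of all members. At OPC-only peaks the shares were 11.1% and 16.7%. The 7 printed peaks were picked for their signal and do not stand for the whole set. Runs of A or T lay toward 1 end of 4 of the 7 peaks, of which the longest was 23 bases of T at Ppp1r10, and the other 3 peaks had such a run just outside their edge, within 100 bp of the peak centre.

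Fold enrichment, the ratio of ChIP signal to control that the peak caller reports, was high in both cell types at these loci. These values are part of what selected the peaks and are given as a description. The highest value in either list was at chr19:6241344-6241669, 161 bp upstream of a TSS of Atg2a, a lipid transfer protein of autophagy, with 167 in OPCs and 189 in NFOs. The intron of Ppp1r10, which encodes a nuclear regulatory subunit of protein phosphatase 1, had 109 in OPCs and 112 in NFOs. The intergenic peak near A330048O09Rik followed with 90.9 and 79.3. The Gm34086 intron had 63.6 and 63.4, so the 2 libraries gave nearly the same value there. The peak upstream of Gad1, which encodes a GABA-synthesising enzyme, had 62.7 in OPCs and 72.4 in NFOs. In an exon 56 bp from a TSS of Limch1, an actin and myosin regulator, the values were 81.7 and 57.3, and at Dnlz, whose product assists a mitochondrial chaperone, they were 77.6 and 53.7. The peak near 4932438H23Rik had 56.3 and 54.0, the Zfhx3 intron 53.3 and 54.8, and the 1700047F07Rik intron 62.0 and 52.2. Zfhx3, a zinc finger and homeobox transcription factor, was the gene with the most shared peaks apart from the 4434882 bp gene model Gm20388, with 3 peaks over its 1018987 bp.

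Across all members the median fold enrichment was 10.1 in OPCs (range 2.09 to 167) and 11.4 in NFOs (range 2.05 to 189). Medians were 7.84 over the OPC-only peaks in OPCs and 7.97 over the NFO-only peaks in NFOs. The share of OPC peaks that were shared was 12% under a fold enrichment of 5, 9.88% from 5 to 10, 18.1% from 10 to 20 and 56.2% from 20 upward, so most of the strongest OPC peaks were members. Values of the 2 cell types were loosely related over the 1059 peaks, with a Spearman rho of 0.439 and a Pearson r of 0.49 on the log2 scale, given without a test because all points come from the same pair of libraries. The NFO value was the higher one at 587 members, 55.4% (95% interval 52.4 to 58.5%, exact Clopper-Pearson here and for every share below). This excess remained with the study's own OLIG2 filter (fold enrichment above 5 and FDR below 0.05), at 56.3% (52.9 to 59.6%). It was not seen above a fold enrichment of 10 in both lists, at 50.1% (45.1 to 55.2%). At peaks without a run of A or T (described below) the share was 50.2% (43.7 to 56.7%), an interval that also includes 55.4%. The value was at least 2-fold higher in NFOs at 191 and at least 2-fold higher in OPCs at 132. Both values exceeded 20 at 103 members and 40 at 16.

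**Figure D1:**
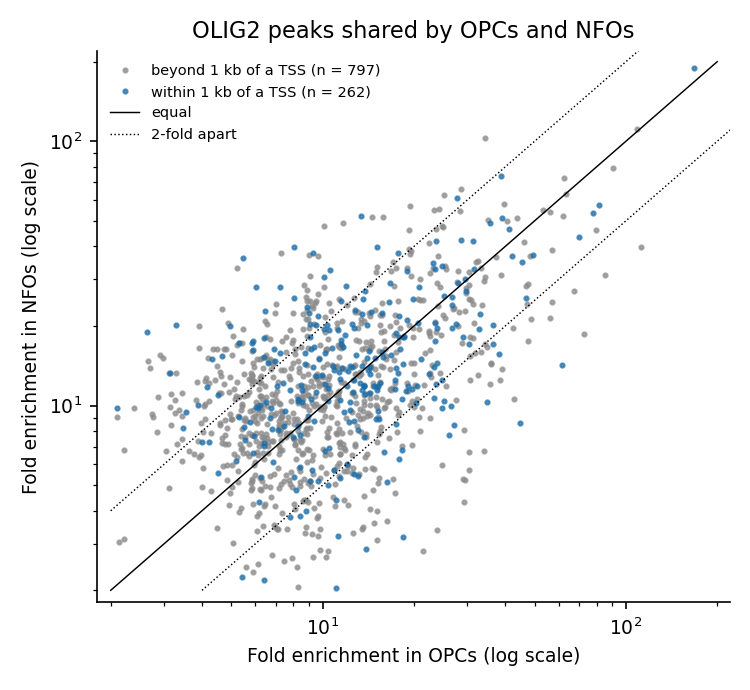
OLIG2 fold enrichment of the 1059 shared peaks in OPCs (x axis) and NFOs (y axis), both on log scales, 1 point per peak, coloured by whether the peak centre lay within 1 kb of a TSS. The solid line marks equal values and dotted lines a 2-fold difference, beyond which lay 191 peaks on the NFO side and 132 on the OPC side.

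The largest shifts between the cell types were seen at promoters as well as far from genes. Among members with at least 10 in either cell type, the NFO to OPC ratio was highest in Gtf3c5, which encodes a subunit of the RNA polymerase III factor TFIIIC, with 2.63 in OPCs and 19.0 in NFOs. Srf, the serum response factor, came next with 5.44 and 36.1. The intergenic peak on chromosome X at 110584737 to 110584966 had 5.21 and 33.3, Lynx1 had 3.29 and 20.2, and Zzef1 had 2.66 and 14.7. These 5 were thus 5.54 to 7.22 times higher in NFOs. In the other direction the ratio of OPC to NFO values was 7.61 in an intron of the ubiquitin ligase gene Ubr4, with 21.4 in OPCs and 2.81 in NFOs. The intron of AC125381.1 had 23.8 and 3.38, and the intergenic peak 31415 bp from a TSS of Egf had 29.3 and 4.33. Zbtb20, a transcription factor of neural progenitors, carried a peak 256 bp from a TSS with 18.4 and 3.19, and a peak 13782 bp from Gm28083 had 29.5 and 5.23. None of these differences has a replicate behind it. The lower value at Gtf3c5, Lynx1, Zzef1, Ubr4, AC125381.1, Egf and Zbtb20 was under the study's own OLIG2 filter of 5. The lowest values of any member were 2.09 in OPCs and 2.05 in NFOs, so these large ratios rest on small values.

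The distance between the OPC and NFO peaks of a member is limited by the overlap rule and the peak widths. It is given as a description. The centres of the OPC and NFO peaks lay a median of 22 bp apart (0 to 218 bp), and 817 of 1059 were within 50 bp. Nearly all OPC peaks were reported with a fixed width of 230 bp and NFO peaks with 236 bp, while 51 shared and 15 OPC-only peaks had another width. At the edge of the rule, the smallest overlaps were 15, 18 and 19 bp, with OPC fold enrichments of 8.56, 3.96 and 9.52. The nearest OPC-only peaks missed an NFO peak by 10, 25 and 28 bp and had 6.78, 26.5 and 8.37. Only 8 OPC-only peaks were within 100 bp of an NFO peak.

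A feature that the rule did not use ran through both OLIG2 lists. A run of at least 12 A or 12 T lay in the window from 100 bp before to 100 bp after the peak centre at 822 of 1059 shared peaks, 77.6% (75 to 80.1%), beside 63.6% of all listed OPC peaks. It lay at 61.2% of OPC-only peaks, a difference of 16.4 points (Newcombe 95% interval 13.5 to 19.1, as for every difference below), and at 59.6% of NFO-only peaks. In windows of the same length 10 kb to the left and right of the OPC peaks the share was 2.86% and 2.82%, and in 32851 RefSeq promoters it was 2.44%. The runs were also placed in a fixed order. Of the runs of A at shared peaks, 420 lay to the left of the centre, at a median of 58 bp, and 2 to the right. Of the runs of T, 418 lay to the right, at a median of 55.5 bp, and 3 to the left. The OPC-only peaks had the same arrangement, with 1951 runs of A on the left against 7 on the right and 1976 runs of T on the right against 7 on the left.

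**Figure D2:**
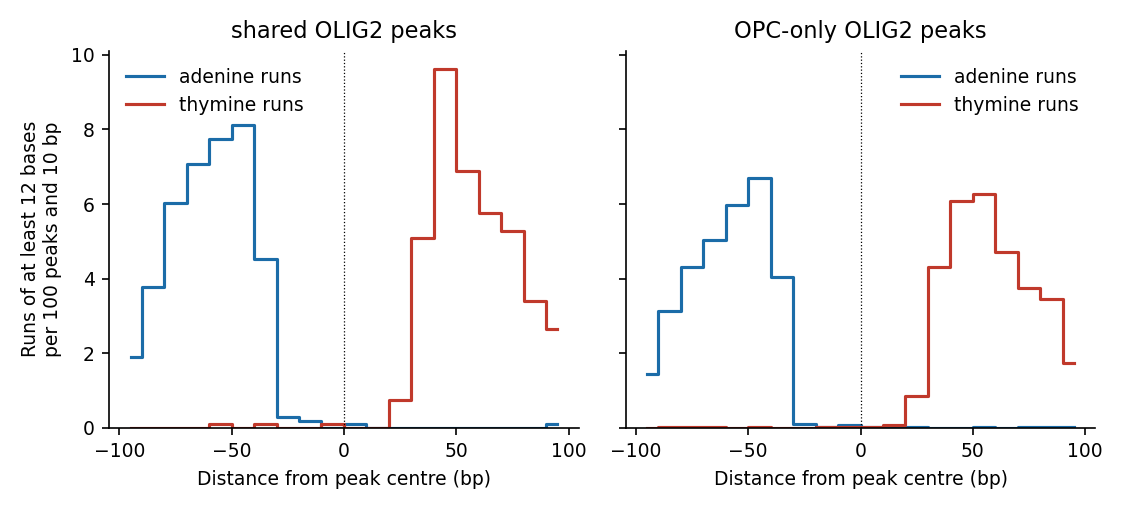
Position of adenine and thymine runs of at least 12 bases on the plus strand around the centres of shared (left) and OPC-only (right) OLIG2 peaks. The x axis gives the distance from the peak centre in bp and the y axis the number of runs per 100 peaks in each 10 bp bin. Adenine runs lay on the left of the centre and thymine runs on the right in both sets.

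The members without such a run numbered 237. The share of OPC peaks that were shared was 17.5% with a run and 8.81% without, and for NFO peaks it was 7.77% and 3.95%. The OLIG2 libraries were made with the DNA SMART ChIP-Seq Kit, which adds a tail of a single base to the fragments and primes on it. Whether the runs or the library preparation bear on the peaks was not tested. The main shares of positions, single marks and both leading E-boxes are therefore also given for peaks without a run, an alternative chosen after seeing the data.

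Shared peaks lay near promoters more often than the other OLIG2 peaks. The peak centre was within 1 kb of a TSS at 262 members, 24.7% (22.2 to 27.5%), beside 14.7% of all OPC peaks. The OPC-only share was 13.0%, a difference of 11.8 points (9.12 to 14.6), and the NFO-only share was 8.60%. Members lay less often in introns, with 33.4% against 38.4% (difference −5.01 points, −8.03 to −1.87), and less often in distal intergenic DNA, with 27.2% against 33.0% (−5.78 points, −8.63 to −2.80). The class between 1 and 3 kb from a TSS held 12.3% and 12.7%, and exons held 2.17% and 2.39%, differences whose intervals included 0. Without a run the share within 1 kb was 23.2% of shared and 13.4% of OPC-only peaks (difference 9.84 points, 4.72 to 15.8). Among OPC peaks with a fold enrichment of at least 20 the shares were 31.5% and 32.6%, a difference of −1.13 points (−11.4 to 8.97), so the excess was not detectable among the strongest peaks. Windows of shared peaks had a mean G+C content of 45.7% and 4 CpG, against 42.9% and 2.40 for OPC-only and 40.8% and 1.78 for NFO-only windows.

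H3K4me3 was found at shared peaks far more often than at peaks of 1 cell type. H3K4me3 of OPCs overlapped 298 members, 28.1% (25.4 to 31.0%), beside 12.6% of all OPC peaks. The OPC-only share was 9.98%, a difference of 18.2 points (15.4 to 21). In NFOs the mark overlapped 326 members, 30.8% (28.0 to 33.7%), against 10.7% of OPC-only peaks (difference 20.1 points, 17.3 to 23.0) and beside 13.6% of all OPC peaks. In NSCs, the stage before either OLIG2 library, it overlapped 422 members, 39.8% (36.9 to 42.9%), against 18.5% (21.4 points, 18.3 to 24.5) and beside 21.6% of all OPC peaks. Where the OPC peak had to lie wholly inside the histone peak, the shares of members fell to 17.1% in OPCs and 11.1% in NFOs and the differences stayed above 0. The NFO-only peaks were lower still, at 12.3%, 4.79% and 6.72% with H3K4me3 of NSCs, OPCs and NFOs.

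**Figure D3:**
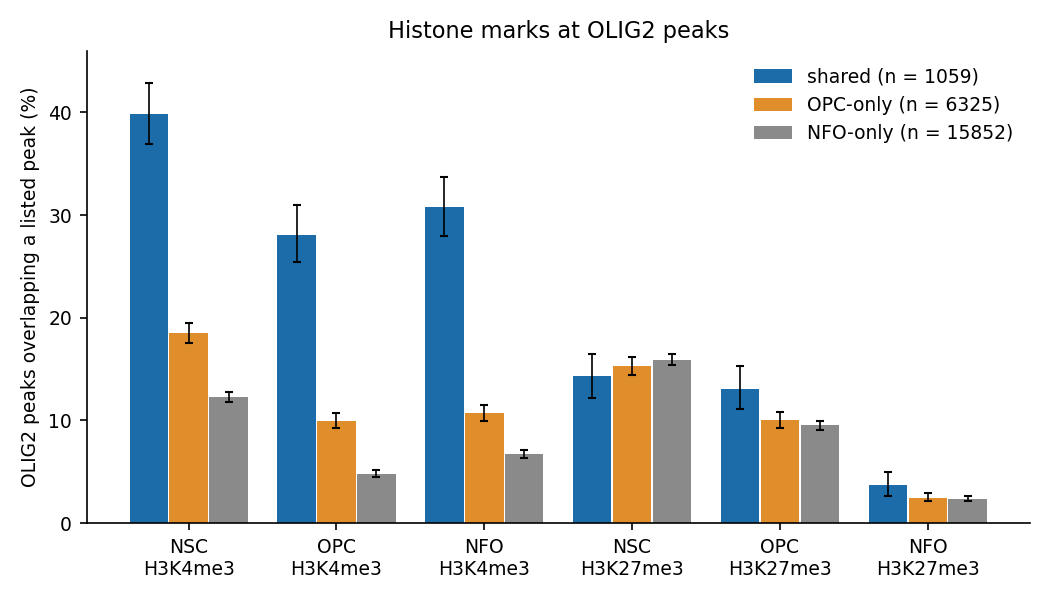
Share of OLIG2 peaks (y axis, in percent) that overlapped a listed H3K4me3 or H3K27me3 peak of NSCs, OPCs or NFOs by at least 1 bp, for shared, OPC-only and NFO-only peaks. Bars are shares and error bars exact 95% intervals over peaks. H3K4me3 was highest at shared peaks in all 3 cell types, from 28.1 to 39.8%, while H3K27me3 of NSCs was at 14.3% of shared and 15.3% of OPC-only peaks.

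The excess of H3K4me3 was found both within and beyond 1 kb of a TSS. The peaks beyond 1 kb include the 130 members at 1 to 3 kb, where wide promoter domains can reach. Peaks beyond 3 kb were not examined alone. Within 1 kb of a TSS the mark of OPCs was at 77.5% of shared and 52.1% of OPC-only peaks (difference 25.3 points, 18.9 to 31.1), and beyond 1 kb at 11.9% and 3.69% (8.23 points, 6.10 to 10.7). For NFOs the differences were 29.7 points near a TSS and 10.3 points (7.83 to 13.0) beyond it, and for NSCs 23.0 and 13.1 points (10.1 to 16.4). Without a run of A or T the mark of OPCs was at 25.3% of shared and 8.72% of OPC-only peaks (16.6 points, 11.3 to 22.6), that of NFOs at 27.4% and 7.66%, and that of NSCs at 35.0% and 14.3%, so the difference was of similar size without the runs. With OLIG2 fold enrichment the share rose in both sets. For OPC H3K4me3 it went from 14.3% of shared peaks under 5 to 18.3%, 33.9% and 47.0% in the higher classes, and from 5.83% to 8.07%, 14.2% and 34.0% of OPC-only peaks.

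Some of the overlapping H3K4me3 peaks were narrow. Over shared peaks their median width was 1902 bp for the NSC list, 1556 bp for OPCs and 538 bp for NFOs. Widths under 400 bp made up 104 of 422 NSC overlaps, 41 of 298 OPC overlaps and 151 of 326 NFO overlaps. Of these narrow overlaps, 86.5%, 87.8% and 79.5% lay at OLIG2 peaks with a run of A or T, beside 77.6% of all shared peaks. Runs were also found at narrow peaks of the NSC lists as a whole. The window around the centre held a run at 72.2% of the 15295 NSC H3K4me3 peaks and 88.0% of the 21582 NSC H3K27me3 peaks under 400 bp, but at 2.36% and 6.30% of those of at least 1 kb. In the OPC and NFO lists the share among narrow peaks was between 2.72% and 18.3%. With histone peaks of at least 1 kb alone, a choice made after seeing the data, H3K4me3 was at 25.5% of shared and 9.52% of OPC-only peaks in NSCs, at 19.9% and 6.94% in OPCs and at 7.84% and 2.36% in NFOs (difference 5.48 points, 3.96 to 7.29).

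Over the course from NSCs to NFOs, most members with H3K4me3 carried it throughout. It was present in all 3 cell types at 273 shared peaks, 25.8% (23.2 to 28.5%), against 7.92% of OPC-only peaks (difference 17.9 points, 15.2 to 20.7). Another 111 members, 10.5%, had it in NSCs alone, against 7.87% (2.61 points, 0.77 to 4.70). Members that lacked it in NSCs and had it in both later stages numbered 10, 0.944%, against 0.443% of OPC-only peaks (0.502 points, 0.0284 to 1.3). It was in NFOs alone at 16 members, 1.51% against 0.949%, and in OPCs alone at 4, 0.378% against 0.3%. The intervals of these last differences included 0. No H3K4me3 in any list was found at 607 members, 57.3%, against 79.8% of OPC-only peaks.

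**Figure D4:**
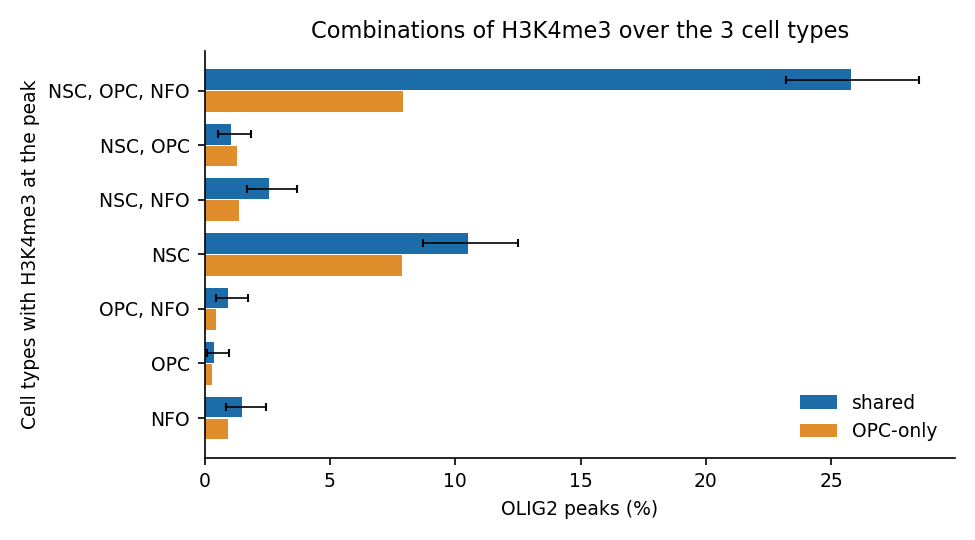
Combinations of H3K4me3 over NSCs, OPCs and NFOs at shared and OPC-only OLIG2 peaks. Bars give the share of peaks (x axis, in percent) with the mark in exactly the cell types named on the y axis, and error bars on the shared bars are exact 95% intervals. The combination of all 3 cell types held 25.8% of shared and 7.92% of OPC-only peaks, and peaks with no H3K4me3 are not drawn.

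H3K27me3 differed little between shared and OPC-only peaks. In NSCs it was at 151 members, 14.3% (12.2 to 16.5%), against 15.3% (difference −1.05 points, −3.22 to 1.35) and beside 15.2% of all OPC peaks. In OPCs it was at 139 members, 13.1% (11.1 to 15.3%), against 10.0% (3.12 points, 1.07 to 5.40) and beside 10.5% of all. In NFOs it was at 39 members, 3.68% (2.63 to 5%), against 2.48% (1.20 points, 0.14 to 2.56) and beside 2.65% of all. These shares depended on the histone filter. At the study's own fold enrichment above 3.5 they were 8.22%, 10.3% and 2.74% of members in NSCs, OPCs and NFOs, above 5 they were 1.89%, 5.57% and 1.13%, and with the OPC peak wholly inside the histone peak 7.37%, 2.83% and 1.61%. In these last 2 settings the intervals of all 3 differences included 0. Runs of A or T moved with the NSC comparison. With a run the NSC mark was at 15.1% of shared and 20.3% of OPC-only peaks (−5.24 points, −7.87 to −2.35), and without one at 11.4% and 7.38% (4.01 points, 0.398 to 8.79), opposite directions on the same list. In OPCs the difference was 0.624 points with a run (−1.79 to 3.32) and 6.57 points without (2.86 to 11.4). In NFOs the mark was at 3.38% of shared and 1.55% of OPC-only peaks without a run (1.83 points, 0.0757 to 5).

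H3K27me3 in all 3 cell types was found at 25 members, 2.36%, against 1.31% (1.05 points, 0.23 to 2.18), and 19 of the 25 also had H3K4me3 in at least 1 cell type. Over all members, 57.3% had no H3K4me3 in any list and 77.6% had a run of A or T. Of the 25, 21 had such a run. The highest OPC fold enrichment of OLIG2 among them was 46, with 41.4 in NFOs, at chr4:99661123-99661252, 4889 bp downstream of the TSS of Foxd3, a forkhead factor of the neural crest. The H3K27me3 domain there spanned 20815 bp in the NSC list, against 3168 and 3183 bp in the later stages. An exon 151 bp from a TSS of Map2k6, a kinase of the p38 pathway, had 41.1 and 46.7 with domains of 1749, 7180 and 2137 bp. Near Gm31656 the OLIG2 values were 34.1 and 29.5, and near AI606473 they were 19.9 and 19.6. In the gene body of Mbnl3, an RNA splicing regulator, they were 19.7 and 11.6. All 6 mark lists had a peak at the Mbnl3 and Gm31656 members. That was so at 9 members in all, 0.85%, against 0.411% of OPC-only peaks (0.439 points, −0.00619 to 1.21). Both marks together were found in OPCs at 44 members, 4.15%, against 1.47% of OPC-only peaks (2.68 points, 1.59 to 4.09), in NSCs at 6.33% against 4.16% (2.17 points, 0.755 to 3.86) and in NFOs at 2.08% against 1.23% (0.844 points, 0.08 to 1.92). Among peaks with H3K4me3 of the same cell type this excess was absent. H3K27me3 was then at 44 of 298 shared and 93 of 631 OPC-only peaks in OPCs, which are similar shares. It was at 67 of 422 and 263 of 1170 in NSCs and at 22 of 326 and 78 of 677 in NFOs, lower shares at members.

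E-boxes of the form CANNTG were found in most windows, and the form CAGCTG was more frequent at shared peaks. Motifs were sought as exact letters on both strands of the same window. CANNTG was in 67.1% of shared and 66.3% of OPC-only windows (difference 0.862 points, −2.25 to 3.86), in 63.6% of NFO-only windows and in 58.4% of promoter windows. CAGCTG, which CANNTG includes, was in 19.0% of shared windows (16.7 to 21.5%), beside 12.2% of all OPC windows. It was in 11.1% of OPC-only windows, a difference of 7.90 points (5.51 to 10.5), in 8.19% of NFO-only windows, in 8.37% and 8.30% of windows 10 kb to either side and in 10.9% of promoters. CAGATG, the other E-box of the printed peaks, was in 20.2% of shared and 16.7% of OPC-only windows (3.46 points, 0.972 to 6.14) and in 11.6% of promoters. That difference was 3.61 points with an interval that included 0 (−0.598 to 8.27) for OLIG2 peaks of fold enrichment above 10, and without a run the shares were 25.3% and 19.8% (5.54 points, 0.181 to 11.6). CATATG was in 5.85% and 5.47%, and CACGTG in 2.64% and 2.45%, with intervals of the difference that included 0.

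The CAGCTG share went with the fold enrichment in OPCs. It was 10.2% of shared windows under 5, 61 of 420 windows from 5 to 10, 21.4% from 10 to 20 and 29.3% from 20 upward. Over OPC-only windows it was 8.19%, 10.0%, 13.2% and 30.5%, so at the top both sets held it equally often within counting error (difference −1.21 points, −11.3 to 8.69). Over the 103 members above 20 in both cell types it was 35.9% (26.7 to 46%). Windows without a run of A or T held CAGCTG at 25.3% of shared and 15.0% of OPC-only peaks (10.3 points, 5 to 16.4), and those with a run at 17.2% and 8.60% (8.55 points, 5.96 to 11.4).

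**Figure D5:**
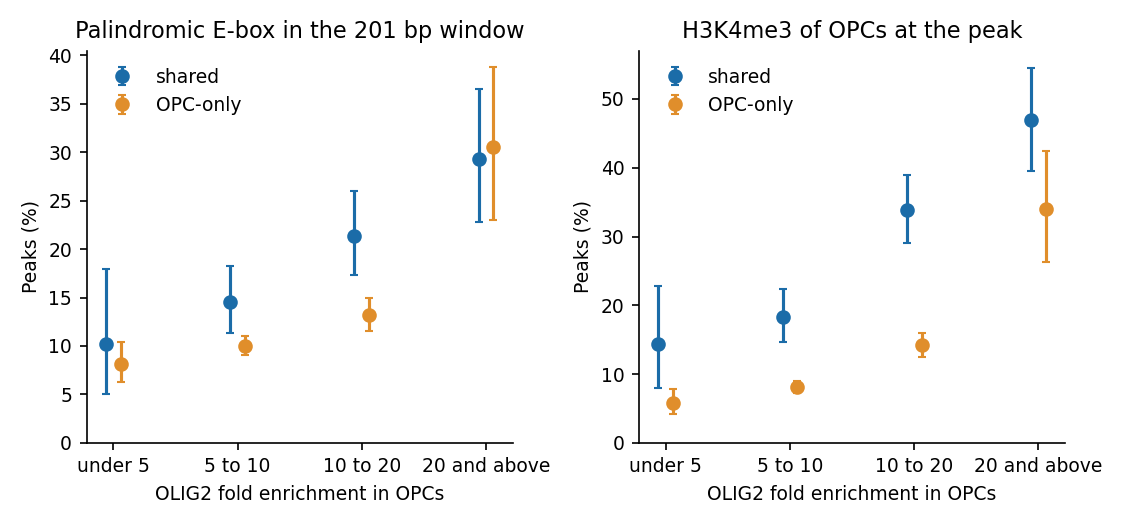
Share of shared and OPC-only OLIG2 peaks (y axes, in percent) with the palindromic E-box of the text in the window of 100 bp on either side of the peak centre (left) and with H3K4me3 of OPCs (right), by OLIG2 fold enrichment in OPCs (x axes, 4 classes). Points are shares and bars exact 95% intervals over peaks. The E-box share rose from 10.2 to 29.3% of shared peaks and met that of OPC-only peaks in the highest class.

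Motifs of other factors differed by fewer percentage points than CAGCTG, although GCGCNTGCG differed more as a ratio of shares. ACAANG, read by SOX proteins, was in 33.1% of shared and 34.8% of OPC-only windows (−1.65 points, −4.67 to 1.46). TGANTCA, read by AP-1, was in 5.85% and 6.09%, and ACATTCC, read by TEAD factors, in 2.46% and 2.47%. CCANNAGGG, a part of the CTCF motif, was in 4.63% and 3.18% (1.45 points, 0.247 to 2.94), and GCGCNTGCG, read by NRF1, in 0.85% and 0.285% (0.565 points, 0.131 to 1.33). CCGGAAG of ETS factors was in 1.61% and 1.19%, CCAAT of NF-Y in 21.3% and 23.3%, AANATGGC of YY1 in 2.74% and 3.92% and TGACGTCA of CREB in 0.283% and 0.221%, all with intervals that included 0. Promoter windows held these 8 motifs at 30.1%, 5.49%, 2.63%, 4.24%, 4.80%, 6.31%, 29.5% and 3.07% in the order named, and TGACGTCA at 1.47%.

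Members with the higher OLIG2 value in either cell type had similar shares of these features. H3K4me3 of NFOs was at 29.3% (23.0 to 36.3%) of the 191 members at least 2-fold higher in NFOs, at 30.8% of the 736 within 2-fold and at 32.6% (24.7 to 41.3%) of the 132 at least 2-fold higher in OPCs. For H3K4me3 of OPCs the shares were 25.7%, 28.8% and 28.0%, and for positions within 1 kb of a TSS 22.5%, 25.5% and 23.5%. CAGCTG was in 17.8%, 19.2% and 19.7%, and a run of A or T in 78.5%, 77.6% and 76.5%. All these intervals overlapped.

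Shared peaks lay in or up to 5 kb upstream of 1022 of 43327 annotated genes (2.36%), of which 740 were protein-coding genes, 3.37% of the 21938 annotated, and 282 were lncRNAs. This rule placed 796 of the 1059 peaks at 1 or more genes. Protein-coding genes with a shared peak had a median length of 58252 bp, against 17433 bp for all. Genes with 2 or more shared peaks numbered 39. The counts below give each list beside the 3.37% of all protein-coding genes and beside its median gene length. In the order of the lists below, a listed OPC peak was at 15, 14, 11, 8, 11 and 12 genes. A listed NFO peak was at 20, 18, 12, 8, 12 and 20. Over the 21911 protein-coding genes of this comparison the numbers were 3594 and 6133. Each list thus had OPC peaks at a larger share of genes too, so a raised share was not particular to shared peaks.

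Transcription factors of the oligodendrocyte lineage had shared peaks at 5 of 36 genes (13.9%, median gene length 26734 bp), namely Sox9, Zfp536, Nfib, Sox5 and Sox4. Sox9, a factor that specifies glia, carried the strongest, with 36.0 in OPCs and 14.4 in NFOs, in an exon 3262 bp from the TSS and under wide H3K4me3 domains (8502 bp for NSCs, then 5951 and 2964 bp for OPCs and NFOs). The peak in an intron of Zfp536, a zinc finger gene, had 22.9 and 14.3 with H3K4me3 in all 3 cell types. Nfib, a nuclear factor I gene of gliogenesis, had 9.46 and 13.0 at 51955 bp from its TSS. Sox5, which restrains oligodendrocyte differentiation, held 2 intronic peaks with 9.92 and 8.71 and with 7.88 and 10.5. Sox4 had the opposite balance from Sox9, with 4.66 in OPCs and 15.4 in NFOs at 683 bp upstream of its TSS, and was the only one of these 5 genes with H3K27me3 (of NSCs) at the peak. Except for 1 of the Sox5 peaks, all of these windows held a run of A or T.

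The genes of OLIG2 itself and of its neighbour Olig1 had no shared peak in the body or within 5 kb upstream. The nearest shared peak, at chr16:91301175-91301404 in an intron of Gm15966, was 31.5 kb from Olig1 and 75.8 kb from Olig2 and had 20.5 in OPCs and 10.6 in NFOs, with H3K4me3 in all 3 cell types and a run of T. The nearest OPC-only peaks were 3.35 kb from Olig1 and 2.94 kb from Olig2, and the nearest NFO-only peaks 121 kb and 165 kb away. Sox10, the partner factor of OLIG2 in the lineage, had its nearest shared peak at 986 kb, and Myrf, the factor that switches on myelin genes, at 654 kb. Over the lineage transcription factors the median distance to a shared peak was 544 kb. Peaks of 1 cell type lay closer to Sox10 and Myrf, with OPC-only peaks at 60.7 and 36.4 kb and NFO-only peaks at 12 and 25 kb. Those sets were larger, with 6325 OPC-only and 15852 NFO-only peaks against 1059 shared peaks. A larger set tends to have a peak nearer to any gene. Distances over all genes are not given, so these distances, here and below, do not show that shared peaks avoid lineage genes.

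Genes that identify OPCs had shared peaks at 2 of 28 (7.14%, median length 62320 bp). Cspg4, which encodes the NG2 proteoglycan of the OPC surface, had 25.6 in OPCs and 11.8 in NFOs in an intron 6763 bp from a TSS, and no histone mark at the peak. Fgfr2, a receptor of fibroblast growth factor, had 10.6 and 22.9 in an intron of its gene model. The nearest TSS to that peak was that of Gm34725, 47110 bp away. A further peak in the Fgfr2 gene model had 20.5 and 11.9 and lay 97 bp from a TSS of Ctbp2, to which that model reaches. Both peaks are counted under the rule, so the place of Fgfr2 in this count rests on that long gene model. Pdgfra, the receptor used to purify OPCs, had its nearest shared peak 62.2 kb away, an OPC-only peak at 5.75 kb and an NFO-only peak at 41.9 kb. Among genes of myelin and oligodendrocyte maturation 3 of 43 (6.98%, median length 24605 bp) had one. Enpp6, a phosphodiesterase expressed as oligodendrocytes form, had 15.2 in OPCs and 9.06 in NFOs at 1633 bp upstream of its TSS, with narrow H3K27me3 peaks of NSCs (274 bp) and OPCs (188 bp). Mog, a glycoprotein of the outer myelin surface, had 5.99 and 9.13 and Fyn, a kinase that acts in myelination, had 8.60 and 4.35, both in introns and without marks. Mbp, the myelin basic protein gene, had its nearest shared peak 1869 kb away, an OPC-only peak at 75.4 kb and an NFO-only peak at 3.93 kb.

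In the Notch pathway 2 of 23 genes (8.70%, median length 21958 bp) had a shared peak. Notch1, the receptor that holds OPCs undifferentiated, had 24.9 in OPCs and 22.0 in NFOs at 2920 bp downstream of its TSS, with H3K4me3 in all 3 cell types over 4576, 3382 and 849 bp. Dner, a Notch ligand, had 13.3 and 9.69. Among BMP and Id genes 2 of 21 (9.52%, median length 45676 bp) had one, with 11.3 and 7.24 at Id3, whose product holds helix-loop-helix factors away from DNA, and 8.42 and 4.98 in Smad9, a transducer of BMP signals. The Id3 window had no run of A or T, nor did those of the Crebbp and Fyn peaks and of the intronic Fgfr2 peak. Among chromatin enzymes 3 of 30 (10.0%, median length 56155 bp) had one. Smarca4, the Brg1 ATPase of the SWI/SNF complex, had 8.72 and 11.4, the acetyltransferase gene Crebbp had 6.49 and 10.3 with H3K4me3 in all 3 cell types, and the deacetylase gene Hdac3, which shares its peak with Diaph1, had 9.80 and 2.83.

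All listed peaks of each library were used, and the lists hold no read numbers. The study's own filter for OLIG2 (fold enrichment above 5 and FDR below 0.05) kept 874 of the 1059 members in both lists. The antibody labels of the 6 histone libraries name the other mark than the titles, and the titles were used here. The H3K4me3 lists had 42.6 to 71.4% of their peaks centred within 1 kb of a TSS and the H3K27me3 lists 5.93 to 14.4%. As a check of cell type, H3K4me3 within 2 kb of a TSS did not separate the 3 stages. It was listed at 6 of 6 OPC markers (Pdgfra, Cspg4, Gpr17, Sox10, Olig1, Olig2) in OPCs and at 5 of 6 in both other lists, and at 6 of 6 NSC markers in NSCs and in OPCs and at 4 of 6 in NFOs. Of the NFO markers given here, the NFO list had it at Cnp and not at Mbp, Mog, Mag, Enpp6, Bcas1 or Myrf, while the NSC and OPC lists had it at Cnp, Mbp, Bcas1 and Myrf, so the mark was listed at more NFO markers in the earlier stages than in NFOs. Neuronal markers had the mark at 2 or 3 of 4 genes, astrocyte markers at 1 or 2 of 4, endothelial markers at 1 of 3 and microglial markers at 0 or 1 of 6 in the 3 lists, and the part of such cells in the results was not tested.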

How the data were processed

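Called peaks from ChIP-Seq were used, 8 lists from 1 library each, with OLIG2 measured in OPCs and NFOs and both histone marks in all 3 cell types. The authors mapped reads to mm10 (GRCm38) with Bowtie2, kept unique reads, used SPP for OLIG2 peaks and MACS2 for broad histone peaks, and removed blacklisted regions. Versions are not given in the sources used here. The deposited lists hold for every peak its fold enrichment, a ratio from the authors' peak caller, and the −log10 of the FDR, with the −log10 p for histone marks. The number of reads is unknown, and a list shows neither signal below its threshold nor the strength of a peak in another library, so an absent overlap is an absent call. OLIG2 libraries came from few cells and were prepared with the DNA SMART ChIP-Seq Kit, and the kit of the histone libraries is not given in the sources used here.

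Overlaps of at least 1 bp defined shared peaks and marks. Peak centres were placed against GENCODE M21 genes with NCBI lncRNAs added, as within 1 kb or 1 to 3 kb of the TSS of any transcript, exon, intron, within 300 bp downstream, or distal intergenic. Windows of 100 bp on either side of the centre were read from the RefSeq GRCm38 genome for motifs and for runs of at least 12 A or T. Shares have exact Clopper-Pearson and differences Newcombe 95% intervals, with no p-value. Overlap, motif and run counting was tested on simulated data. The members, gene lists, motifs and tests were chosen with earlier results of these data known. Named peaks were the 10 with the highest lower fold enrichment, the 5 with the largest and the 5 with the smallest ratio of NFO to OPC values among those with at least 10 in either, the 5 of highest OPC fold enrichment with H3K27me3 in all 3 cell types, and those in a gene list. The shared peak nearest Olig1 was added after its values were seen. Alternatives were stricter filters of both kinds of list, other overlap, gene and TSS rules and a window of 50 bp on either side. RIP-Seq, input DNA and NSC OLIG2 data were not used here. Intervals came from SciPy 1.17.1 and statsmodels 0.14.6 and sequences from pysam 0.24.0, under Python 3.11.15 with pandas 2.3.3.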

Additional observations from a re-analysis of the deposited data

How the results depend on the processing

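The excess of H3K4me3 at shared over OPC-only peaks kept its direction and an interval above 0 in 30 of 30 alternatives (10 for each cell type), between 5.48 and 28.1 points. A fold enrichment of OLIG2 above 10 in both lists left 397 shared peaks at 416 genes, and the NFO value was the higher one at 50.1%. Above 5 that last share was 56.3%. Without a run of at least 12 A or T, chosen after seeing the data, 237 shared peaks at 233 genes remained, the NFO value was the higher one at 50.2%, and the NSC H3K27me3 difference became 4.01 points (0.398 to 8.79). The nearest TSS within 10 kb gave 624 genes. The OPC H3K27me3 difference had an interval that included 0 with histone peaks of fold enrichment above 5 (1 point), with the OPC peak wholly inside the histone peak (0.825) and among OPC peaks of fold enrichment 20 and above (5.14), the last chosen after seeing the data. So did the NFO H3K27me3 difference with OLIG2 fold enrichment above 5 (0.911), histone fold enrichment above 5 (0.374), the peak wholly inside (0.625), a histone peak within 1 kb (0.454) and OPC fold enrichment 20 and above (2.84). In that last class of strong peaks the differences in the share near a TSS (−1.13 points), in CAGCTG (−1.21) and in CAGATG (−1.93) had the other sign, with intervals that included 0. The CAGATG difference also had an interval that included 0 with OLIG2 fold enrichment above 10 (3.61 points). Of 84 further values, the single shares and the CAGATG differences, 48 shares moved beyond the counting interval of the main value. In that class there were fewer peaks, and the cause of the other changes was not tested. No paired analysis was possible because every condition had 1 library. With 1 library per cell type no difference between OPCs and NFOs can be told apart from a difference between libraries.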
